A study of Mus musculus with 5 samples.

Results

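Of 8 genes widely used as markers of neural stem cells (Nes, Vim, Fabp7, Prom1, Msi1, Msi2, Pax6 and Fut4), 1 had a TLX peak within 50 kb in brain tumour stem cells (BTSC) and 6 had one in normal neural stem cells (NSC). Among all protein-coding genes, 10.2% had one in BTSC and 42.1% in NSC. The 8 genes are a list of names, drawn up with earlier results of these data known, out of 21887 protein-coding genes of the nuclear chromosomes in the mouse annotation. Every deposited peak overlapping the body of a gene, or the 50 kb on either side of it, was counted for that gene. These windows held 3 of the 1436 TLX peaks of BTSC, against 28 of the 7458 of NSC, and 66 of the 31597 H3K27ac peaks of BTSC, against 53 of the 31266 of NSC. All positions are in mouse build mm10.

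TLX, the product of Nr2e1, belongs to the orphan nuclear receptors and keeps neural stem cells proliferating. It was expressed from a retrovirus with a 3xTY1 tag in mouse BTSC and NSC cultures, and precipitated through the tag. H3K27ac, an acetylation of histone H3 found at active promoters and enhancers, was profiled in BTSC and NSC that had not been transduced, so TLX and H3K27ac come from different cells of each culture. A further library, from cells carrying the empty MSCV-neo vector and precipitated with no antibody, has no peak list analysed here; the labels give neither a tumour model nor a TY1 precipitation from cells without the tag. Each of the 4 peak lists comes from 1 library, so no difference below has a replicate check or a p-value, and depth per library is unknown because the files give no read numbers. Where a list has no peak, the statement made is that the caller found none in that library. The single growth protocol in the labels speaks of primary neural stem cells for every sample, BTSC included. Likewise the single extraction protocol names only the TY1 antibody, while the antibody label of both H3K27ac samples is H3K27ac; the lists are taken here as that label gives them.

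The 8 markers label undifferentiated neural cells in different ways. Nes and Vim encode intermediate filament proteins of progenitors, and Fabp7 encodes the fatty acid binding protein of radial glia. Prom1 and Fut4 stand behind surface antigens used for sorting: Prom1 encodes prominin, and Fut4 a fucosyltransferase that makes the Lewis X sugar. Msi1 and Msi2 encode RNA-binding proteins that favour self-renewal, and Pax6 encodes a paired-type homeobox factor of cortical progenitors. As a check of the cultures, H3K27ac lay within 1 kb of a gene end at 5 of 9 neural stem cell markers (the 8 genes and Sox2) in BTSC and at 6 of 9 in NSC. It lay there at 0 of 3 microglial and 0 of 3 endothelial marker genes in either list. Neuronal markers had it at 1 of 4 in BTSC (Tubb3) and at 3 of 4 in NSC (Dcx, Syt1 and Tubb3). Of all protein-coding genes, 49.6% had H3K27ac at a gene end in both lists, 2.62% in NSC alone and 2.09% in BTSC alone. The neural stem cell counts were near these shares and so do little to identify the cultures.

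Of the 11 RefSeq promoter windows listed for 7 of the 8 genes (250 bases before to 50 bases after a start site), TLX peaks overlapped 0 in BTSC and 2 in NSC, those of Fabp7 and Vim. Over all 32851 promoter windows of the same table, TLX peaks of BTSC overlapped 1.09% and those of NSC 8.04%. The sequences of both promoters, from RefSeq GRCm38.p6, are shown because a TLX peak lay over them. The Fabp7 window is chr10:57784673-57784972 and the Vim window chr2:13574061-13574360, both on the plus strand and written 5′ to 3′. Capitals mark letters that match a searched motif.

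Fabp7: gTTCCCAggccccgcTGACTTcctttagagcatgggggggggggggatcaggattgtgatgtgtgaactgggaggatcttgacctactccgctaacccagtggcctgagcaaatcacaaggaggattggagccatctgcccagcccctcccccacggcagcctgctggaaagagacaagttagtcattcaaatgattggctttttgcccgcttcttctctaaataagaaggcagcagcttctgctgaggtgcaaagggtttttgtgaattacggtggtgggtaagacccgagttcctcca

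Vim: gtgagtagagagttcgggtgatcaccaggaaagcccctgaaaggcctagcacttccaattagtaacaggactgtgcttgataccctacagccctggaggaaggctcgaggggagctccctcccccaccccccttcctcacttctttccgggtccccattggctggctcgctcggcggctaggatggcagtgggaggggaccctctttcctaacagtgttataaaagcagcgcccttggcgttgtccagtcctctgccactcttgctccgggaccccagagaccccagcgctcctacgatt

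The letters searched on both strands were AAGTCA, the half-site that TLX recognises, TGGGAA for RBPJ, ATTTGCAT for POU factors, and ACAATG and ACAAAG for SOX factors. The Fabp7 window held AAGTCA on its other strand, read as TGACTT with its first base at -235 from the start site. It also held TGGGAA on its other strand, read as TTCCCA with its first base at -249, and these matches do not overlap. The Vim window held none of the 5 motifs, and neither did that of Nes. AAGTCA occurred in 15.1% of all promoter windows and in 13.0% of the 2642 under an NSC TLX peak, so the match at Fabp7 describes these letters and shows no site. Elsewhere among the markers, TGGGAA occurred in 1 of the Prom1 windows and ACAAAG in 1 of the Pax6 windows. Over all promoter windows TGGGAA occurred in 25.6% and ACAAAG in 18.7%, and under an NSC TLX peak in 20.4% and 14.1%.

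TLX was found near most markers in NSC and near Msi2 alone in BTSC. The 1 of 8 markers with a BTSC peak was near the share of all protein-coding genes with a BTSC TLX peak in the same window, 10.2%. The 6 of 8 with an NSC peak compare with 42.1% of all genes. The NSC list is the longer one, and cut to the length of the BTSC list it had a peak near 3 markers. Msi2 was the 1 marker with TLX in both lists, again near the share of all genes, 9.4%. Msi2 had 3 peaks in BTSC and 11 in NSC. The other markers had 0 in BTSC, whereas in NSC Nes had 7, Fabp7 had 4, Msi1 had 3, Vim had 2 and Pax6 had 1. Prom1 and Fut4 had no TLX peak in either list; their nearest were 2229 and 574 kb away in BTSC and 325 and 134 kb away in NSC. Of the markers with TLX in NSC alone, the nearest BTSC peak lay 225 kb from Nes, 560 kb from Pax6, 759 kb from Vim, 891 kb from Fabp7 and 1476 kb from Msi1. The number of BTSC peaks was 0.107 times that of NSC peaks in these windows and 0.193 times in the whole lists, with 3 BTSC peaks behind the first ratio. Without Msi2 the windows held 0 BTSC peaks and 17 NSC peaks.

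**Figure D1:**
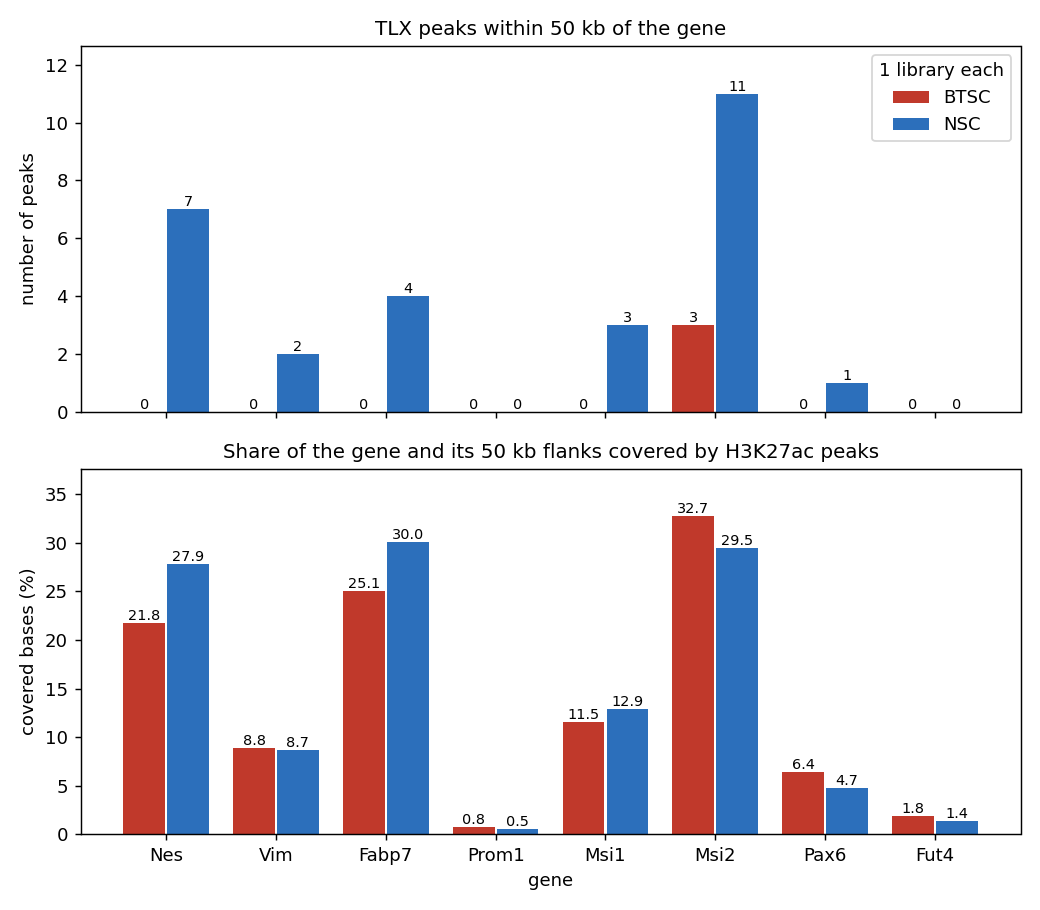
Bars give, for each gene, the number of TLX peaks within 50 kb (top) and the percent of the gene and its flanks covered by H3K27ac peaks (bottom) in BTSC (red) and NSC (blue), 1 library each. TLX peaks of BTSC appear at Msi2 alone, while H3K27ac coverage in both lists was above 20% at Nes, Fabp7 and Msi2 and lowest at Prom1 (0.787% in BTSC and 0.538% in NSC).

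NSC peaks of higher q were more often in the BTSC list too. Of the 28 NSC peaks near markers, 3 overlapped a BTSC peak, which is 10.7% (exact Clopper-Pearson 95% interval 2.27 to 28.2, counting error only), against 15.8% of all NSC peaks. With −log10 q under 5 these were 0 of 4 marker peaks and 2.26% of all NSC peaks, and between 5 and 10 they were 0 of 15 and 7.44%. Between 10 and 20 they were 1 of 5 and 19.7%, and from 20 upward 2 of 4 and 54.5%. The strongest NSC peaks near Fabp7 (−log10 q of 26.9) and Nes (25.8) were not in the BTSC list. When the NSC list was cut to its 1436 strongest peaks, 3 markers had TLX in NSC: Nes with 1 peak, Fabp7 with 1 and Msi2 with 2, against 3 BTSC peaks at Msi2.

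**Figure D2:**
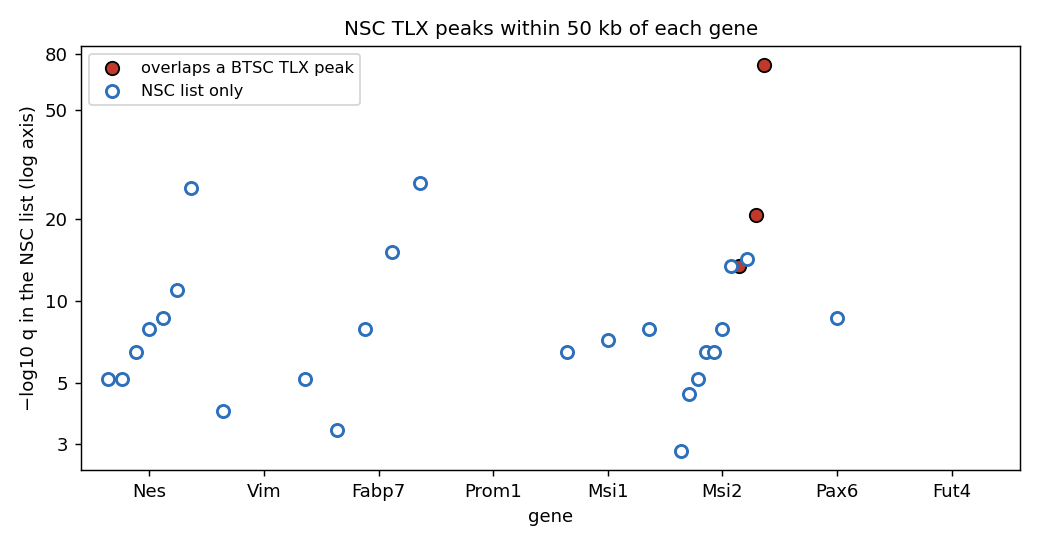
Each point is a TLX peak of the NSC list within 50 kb of a marker, placed by the −log10 q the authors' caller gave it (log axis); filled points overlap a BTSC TLX peak. The 3 filled points are all at Msi2, from 13.4 to 72.8, and open points at Fabp7 and Nes reach 26.9 and 25.8.

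Nes, at chromosome 3 from 87971093 to 87980451, had the densest TLX binding of the markers in NSC, 0 peaks per 100 kb in BTSC and 6.40 in NSC. Of all protein-coding genes, 0.311% had at least 7 NSC peaks in such a window. A pair of peaks lay inside the gene, with summits 1595 and 3293 bp after the start site and folds of 4.40 and 4.02. A fold here is the authors' own enrichment of a peak over the caller's background, used to describe peaks within a list. Further peaks followed beyond the gene with summits 11117 and 14536 bp after the start site. The remaining 3 lay at neighbours of Nes. The peak of highest q, at 88002003 to 88002898 with a fold of 8.36, had its summit 263 bp from an end of Bcan, which encodes the brain proteoglycan brevican, and another lay inside Bcan. The last had its summit 6 bp from an end of Isg20l2. In all, 3 of the 7 Nes peaks had an end of Nes as their nearest gene end.

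H3K27ac around Nes covered 23841 bp in BTSC and 30476 bp in NSC, a ratio of 0.78. In BTSC a region of 4881 bp with a fold of 10.99 lay over the start of the gene, and a weaker one of 8644 bp with a fold of 3.18 lay beyond its end. In NSC a single region of 18200 bp, from 87970239 to 87988438, overlapped both of these and held 4 TLX peaks. Between the BTSC regions 8890 bp that NSC had covered were uncalled in BTSC, and the TLX peak of NSC at 87982019 to 87982647 lay in this gap. The region of highest fold in the Nes window reached into Bcan in both lists, with a fold of 35.8 over 6760 bp in BTSC and 35.4 over 9228 bp in NSC. With peaks of −log10 q of at least 5 alone, the weaker BTSC region dropped out and the ratio was 0.50.

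Fabp7, at chromosome 10 from 57784923 to 57788450, carried no TLX peak in BTSC and 1 at its start site in NSC. That peak ran from 57784440 to 57785676, with its summit 35 bp before the start site, a fold of 6.50 and a −log10 q of 15.1. The promoter printed above lies inside it. Another NSC peak lay 8926 bp before the start site, a further one 40.3 kb before the gene, and the peak of highest q 44.0 kb after the start site, with a fold of 7.83. This last summit was 17111 bp from an end of Smpdl3a, the nearest gene end. Acetylation at the gene was much alike in both lists. A region of 16071 bp with a fold of 18.5 in BTSC and one of 14959 bp with a fold of 19.1 in NSC spanned the whole gene, and each list covered over 90% of the other's region there (91.7% of the BTSC region and 98.6% of the NSC region). Both lists had H3K27ac at the distal TLX site, and the called regions around it differed in extent. There BTSC had regions of 1243 bp (fold of 4.75) and 1157 bp (fold of 2.497), and the TLX peak of NSC lay within the latter. NSC had 1 region of 9985 bp (fold of 5.31), of which 7585 bp were uncovered in BTSC. The Fabp7 window had 25946 covered bp in BTSC and 31104 bp in NSC, a ratio of 0.83, which became 1.08 within 10 kb of the gene.

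**Figure D3:**
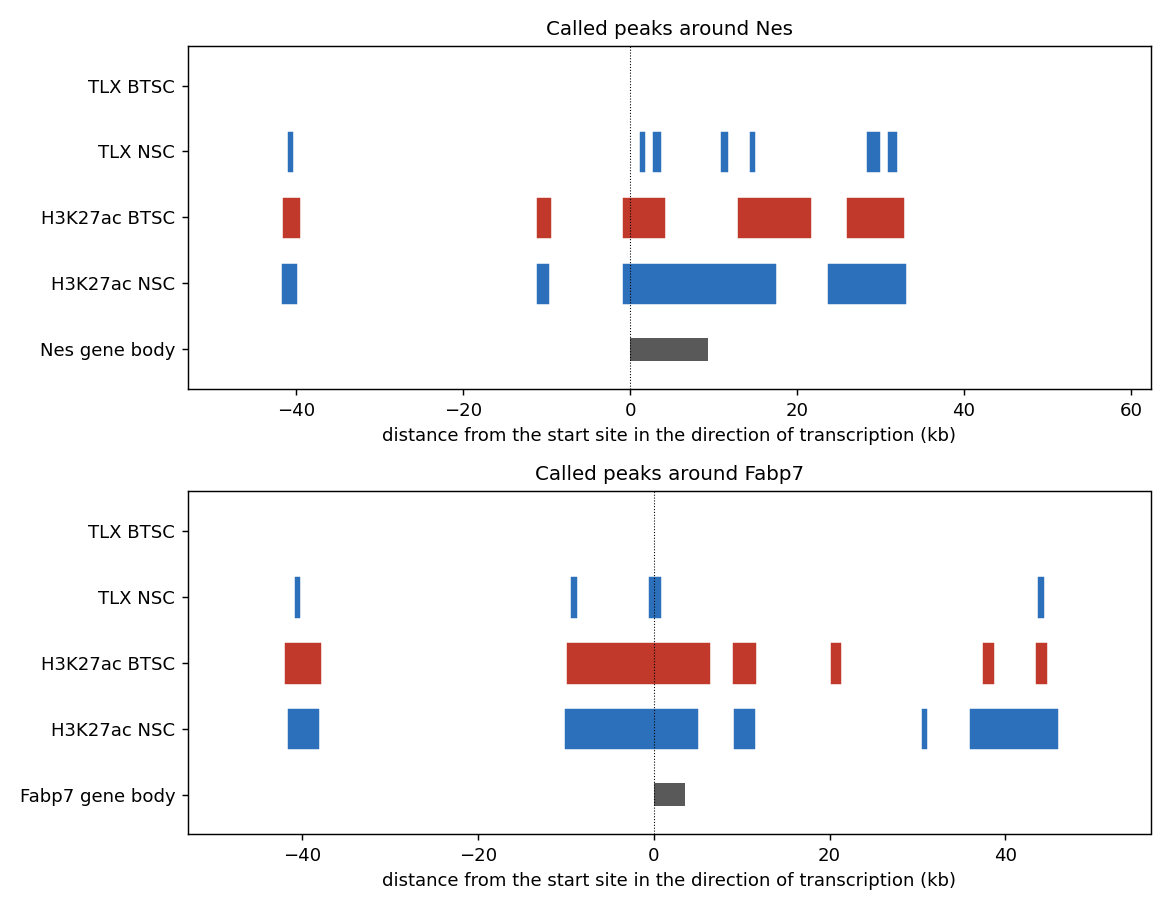
Called peaks around Nes and Fabp7, plotted by distance from the start site in kb; rows are TLX and H3K27ac in BTSC (red) and NSC (blue), and grey bars mark the gene bodies. At Nes, BTSC has regions of 4881 and 8644 bp where NSC has 1 of 18200 bp, and at the distal Fabp7 site BTSC has regions of 1243 and 1157 bp where NSC has 1 of 9985 bp.

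Vim, at chromosome 2 from 13574311 to 13582826, had the most similar acetylation of the 8 genes. A region of 7324 bp with a fold of 17.9 in BTSC and one of 7047 bp with a fold of 22.6 in NSC lay over the start site. The Vim window had 9582 covered bp in BTSC and 9453 bp in NSC, and 95.6% of the bases covered in either list were covered in both. No TLX peak was over the start site in BTSC, and 1 was in NSC, with its summit 436 bp before it, a fold of 4.02 and a −log10 q of 5.20. At that strength few NSC peaks were in the BTSC list, as given above. The other NSC peak in the window had its summit inside Trdmt1, 124 bp from an end of that gene.

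Pax6, at chromosome 2 from 105668896 to 105698410, had no TLX peak in BTSC and 1 in NSC, from 105676113 to 105677222 inside the gene, with a fold of 4.97 and its summit 7576 bp after the first start site. The peak lay in an acetylated region of 5433 bp with a fold of 19.9 in BTSC and of 4971 bp with a fold of 18.2 in NSC. In neither list did H3K27ac overlap either of the RefSeq promoter windows of Pax6, which lie on opposite sides of that region. A further acetylated region inside the neighbour Elp4 was 2879 bp wide with a fold of 7.55 in BTSC and 1154 bp wide with a fold of 3.49 in NSC. The Pax6 window had 8312 covered bp in BTSC and 6125 bp in NSC, a ratio of 1.36, and 0 bp were covered in NSC alone.

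Msi2, at chromosome 11 from 88339382 to 88718306, is 379 kb long, and its window had 0.626 TLX peaks per 100 kb in BTSC and 2.30 per 100 kb in NSC. At least 3 BTSC peaks were found at 0.297% of all genes and at 2.56% of the 390 genes as long as Msi2 or longer. At least 11 NSC peaks were found at 0.0228% of all genes and at 1.03% of those long genes. All 3 BTSC peaks and 10 of the 11 NSC peaks lay inside the gene, and none lay at its promoter. The shared site of highest q in NSC was at 88471657 to 88472731 there, with a fold of 16.4. Its BTSC peak was at 88471954 to 88472437, with a fold of 5.72. In the BTSC list 42.2% of peaks had a q at least as high as this site, and in the NSC list 0.59%. A further shared site had the highest q of the 3 in BTSC, at 88585102 to 88585623 with a fold of 6.18. In NSC it was at 88584968 to 88585620 with a fold of 7.65. The last was at 88523649 to 88525461 in BTSC with a fold of 4.35, and at 88523990 to 88525476 in NSC with a fold of 6.12. Summits of the BTSC and NSC peaks were 85 and 28 bp apart at the first pair of these sites and 970 bp apart at the last, where the peaks overlapped by 1472 bp.

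Msi2 had the most acetylated bp of the 8 genes, in the longest window (479 kb). It had 36 regions and 156794 covered bp in BTSC and 28 regions and 141058 covered bp in NSC, a ratio of 1.11. As a share of the window this was 32.7% in BTSC and 29.5% in NSC, against 25.1% and 30.0% at Fabp7. A region over its start site was 4931 bp wide with a fold of 16.0 in BTSC and 3485 bp wide with a fold of 15.1 in NSC. The widest region, inside the gene, was 25322 bp in BTSC and 19996 bp in NSC. It held the shared TLX site at 88585102 together with a further NSC peak. Regions without a counterpart numbered 10 in BTSC, covering 16869 bp, and 2 in NSC, covering 1734 bp. All of these had folds of at most 3.42 in BTSC and 3.18 in NSC. Of the 11 NSC TLX peaks, 9 lay in H3K27ac of BTSC and 10 in H3K27ac of NSC.

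**Figure D4:**
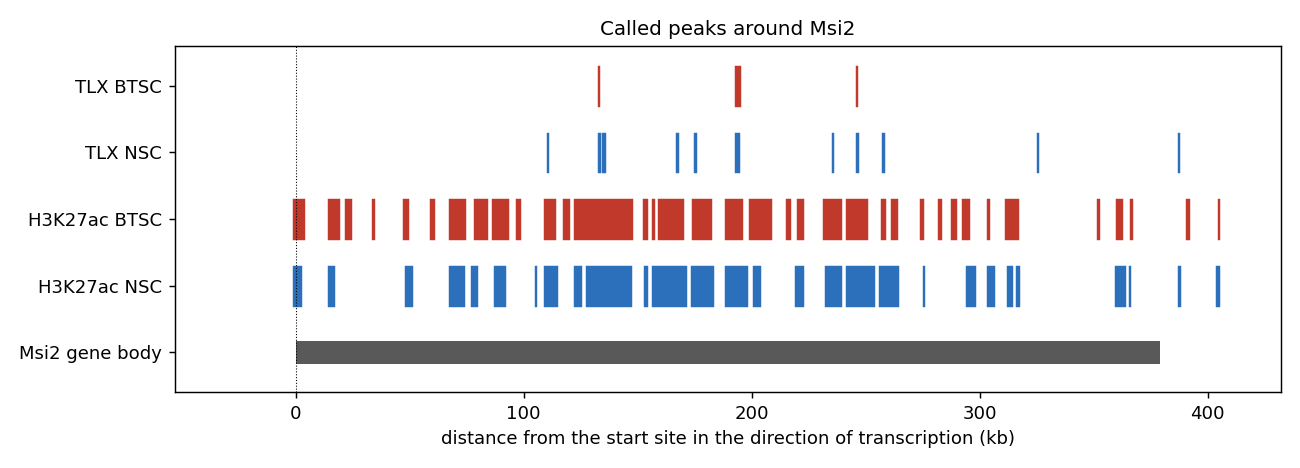
Called peaks around Msi2 by distance from the start site in kb, with BTSC in red, NSC in blue and the gene body in grey. The 3 TLX peaks of BTSC each lie over an NSC peak inside the gene, 133 to 246 kb after the start site, and H3K27ac regions are spread along the gene in both lists.

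Msi1, at chromosome 5 from 115359059 to 115455698, had no TLX peak in BTSC and 3 in NSC. Of these, 2 lay inside the gene, at 115373754 to 115374196 with a fold of 4.59 and at 115436281 to 115437082 with a fold of 4.40. The remaining one, the peak of highest q in the window (−log10 q of 7.92, fold of 4.78), had its summit inside Sirt4, 180 bp from an end of that gene. The peak at 115436281 lay in an acetylated part of the gene that BTSC covered with regions of 4297 and 4172 bp (folds of 13.2 and 13.8) and NSC with a single region of 10199 bp (fold of 11.8). All 11 BTSC and all 10 NSC regions of the Msi1 window had a counterpart in the other list. The window had 22680 covered bp in BTSC and 25441 bp in NSC, a ratio of 0.89. Some regions of the window lay at ends of the neighbours Srsf9, Gatc, Cox6a1, Sirt4 and Pxn. No region was within 1 kb of an annotated end of Msi1 in either list. No RefSeq start site was listed for Msi1, so the acetylated regions inside the gene could not be placed against one.

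Little acetylation was called near the surface antigen genes Prom1 and Fut4. At Prom1, chromosome 5 from 43993621 to 44102047, the gene itself held a region of 454 bp with a fold of 3.41 in BTSC and of 1122 bp with a fold of 4.51 in NSC. Prom1 was the 1 marker with H3K27ac within 1 kb of a gene end in the NSC list alone, a class with 2.62% of all genes, and that class rests on where the gene is taken to end. The near edge of the BTSC region was 0.721 kb inside the RefSeq start site and that of the NSC region 0.325 kb, so both lie within 1 kb of that start site. BTSC had a further region of 1858 bp reaching into the far edge of the window, upstream of the gene. The Prom1 window had 1640 covered bp in BTSC and 1122 bp in NSC, a ratio of 1.46 that became 0.40 within 10 kb and 3.52 within 100 kb. At Fut4, chromosome 9 from 14748459 to 14752122, no region was called within 30 kb in either list. The nearest strong region, 1443 bp wide in BTSC and 1464 bp in NSC, lay over an end of Mre11a, and BTSC alone had a weak region of 455 bp inside Piwil4.

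H3K27ac within 1 kb of a gene end was found in both lists at 4 of 8 markers (Nes, Vim, Fabp7 and Msi2), against 49.6% of all genes. It was found in the BTSC list alone at 0 of 8, against 2.09% of all genes, and in the NSC list alone at 1 (Prom1), against 2.62%. The remaining 3 (Msi1, Pax6 and Fut4) had it in neither list, as did the remainder of all genes. No RefSeq promoter window was listed for Msi1, so its class rests on the annotated gene ends. Acetylation at a start site inside that gene was not assessed. Of the 6 markers with at least 5000 covered bp in a list, 0 were 1.5 times higher in BTSC, against 21.4% of the 11385 such genes, and 0 were 1.5 times lower, against 9.48%. Nes was 1.5 times lower under other settings, with a ratio of 0.50 where −log10 q was at least 5 and of 0.64 within 10 kb. Summed over the windows, 250693 bp were covered in BTSC and 246243 bp in NSC, a ratio of 1.02, with Msi2 holding most of both. The ratio was 0.89 without Msi2 and 1.08 for the whole lists. Of the marker regions, 53 of 66 in BTSC (80.3%, interval 68.7 to 89.1) and 50 of 53 in NSC (94.3%, 84.3 to 98.8) overlapped one of the other list, against 76.8% and 79.0% of all regions. These intervals take regions as independent, although Msi2 alone held 36 of the 66 and 28 of the 53. Marker regions were also wider, with medians of 2287.5 bp in BTSC and 2894 bp in NSC against 1578 and 1575 bp over all regions. The part of width in this overlap was not tested.

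**Figure D5:**
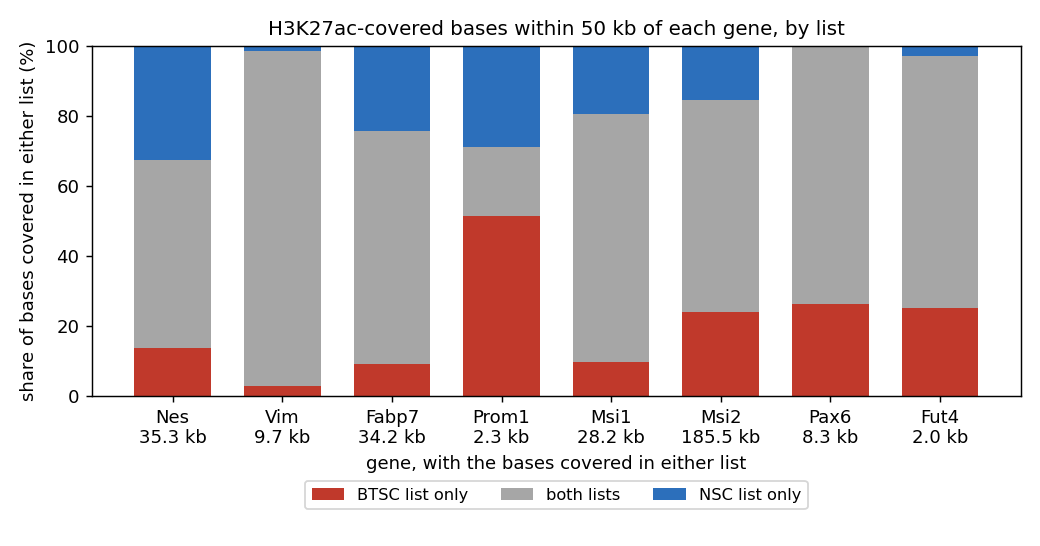
Of the bases within 50 kb of each gene that H3K27ac covered in either list, the bars give the percent covered in BTSC alone (red), in both (grey) and in NSC alone (blue); the kb under each name is the total. The shared part was largest at Vim (95.6%) and smallest at Prom1 (19.7%), where few bases were covered.

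Nearly all TLX peaks near the markers lay in acetylated chromatin, as did most TLX peaks of each whole list. In BTSC 3 of 3 overlapped H3K27ac of BTSC, against 93.2% of all BTSC TLX peaks. In NSC 27 of 28 (96.4%, 81.7 to 99.9) overlapped H3K27ac of NSC, against 91.6% of all NSC TLX peaks. H3K27ac of BTSC was also present at 25 of those 28 NSC peaks (89.3%, 71.8 to 97.7), a share close to the 88.1% of all NSC TLX peaks. The exceptions were the peak in the gap at Nes and a peak beyond the far end of Msi2 at 88330905, in H3K27ac of NSC alone, and a peak inside Msi2 at 88392637, outside both. Read from the other side, marker regions of H3K27ac held an NSC TLX peak in 21 of 66 cases in BTSC (31.8%, 20.9 to 44.4) and 21 of 53 in NSC (39.6%, 26.5 to 54.0), against 19.2% and 20.2% of all regions. Marker regions had a median width of 2287.5 bp in BTSC and 2894 bp in NSC, against 1578 and 1575 bp over all regions. Msi2 alone held 36 of the 66 and 28 of the 53, whereas the intervals take regions as independent. Whether width accounts for the difference was not tested.

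TLX in BTSC was found at most genes of another neural stem cell list. Of 11 of its genes (Sox1, Sox2, Sox9, Hes1, Hes5, Notch1, Slc1a3, Egfr, Nr2e1, Gfap and Tnc), 9 had a TLX peak within 50 kb in BTSC and 10 in NSC, 8 of them in both. Over all genes these shares were 10.2%, 42.1% and 9.4%. The list was drawn up with earlier results of these data known, and the difference from the markers was not tested. Notch1, a receptor that keeps progenitors undifferentiated, had 3 peaks in BTSC and 6 in NSC. Sox2, a factor that maintains stem cell identity, had 1 in BTSC and 7 in NSC. The glutamate transporter gene Slc1a3 had 2 in BTSC and 3 in NSC, and Egfr had 2 in either list. Sox1, Sox9, Hes1 and Gfap had 1 each in BTSC and 2 or 3 in NSC. Nr2e1, the gene of TLX, had 5 in BTSC and 0 in NSC, and without it 8 of 10 had TLX in BTSC; in these lists, reads from the retroviral TLX and from exons of Nr2e1 cannot be told apart. All 11 genes had H3K27ac at a gene end in both lists, against 49.6% of all genes. Covered bp were at least 1.5 times higher in BTSC at 4 of the 11 (Nr2e1, Egfr, Sox9 and Gfap) and lower at 1 (Tnc, with 9771 bp in BTSC and 18663 bp in NSC). Among all genes with at least 5000 covered bp in a list, 21.4% were higher and 9.48% lower.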

How the data were processed

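Chromatin immunoprecipitation with sequencing was available for 4 of 5 mouse samples, 1 library per group. The submitters' processing notes name Bowtie, ChIPseeker, bcl2fastq 2.17.1.14 and build mm10; the peak caller is not given in the sources used here. Each deposited list holds, per peak, a score, a fold enrichment (a linear ratio), and p-value and q-value as −log10, all made by the authors. In every line the score came to 10 times −log10 q, to within 1. TLX peaks are narrow, with a summit, and H3K27ac peaks are broad. The authors deposited 1 list per library.

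Genes came from RefSeq GRCm38.p6 (the assembly of mm10), without exons; start sites and strand came from its promoter table. Overlaps needed 1 bp. Shares have exact Clopper-Pearson 95% intervals; no test was possible with 1 library per group. Interval arithmetic (Python 3.11.15, pandas 2.3.3, scipy 1.17.1) was tested on simulated data. The rule named all 8 genes, their peak of highest q, shared peaks and widest regions, genes at counted peaks, and listed genes with TLX in BTSC. Some listed genes, and the oligodendrocyte marker list, are not reported here. Members and lists were chosen with earlier results of these data known. Motif letters were searched in promoters only, since no genome was used. Alternatives were a stricter q, other windows, equal list lengths, other overlap rules and chromosome scaling; leaving out Msi2 and RefSeq start sites were chosen after seeing the data.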

Additional observations from a re-analysis of the deposited data

How the results depend on the processing

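Of 51 alternative values, 44 stayed near the reported one, which means within 1.5 times for counts, lengths and ratios and within the 95% interval for shares. The exceptions concern list length and Msi2. With equal numbers of peaks, markers with TLX in NSC were 3 in place of 6, their peaks 4 in place of 28, and the share of these in H3K27ac 100%. Without Msi2, TLX peaks were 0 in BTSC and 17 in NSC, and covered bp 93899 in BTSC and 105185 in NSC. The ratio of summed covered bp (1.02) crossed 1 with a stricter q (0.98), relative to the covered bp of each chromosome (0.92) and without Msi2 (0.89); the cause was not tested. Among single genes the direction of the ratio changed at Fabp7 within 10 kb (1.08), at Prom1 within 10 kb (0.40) and at Fut4 with a stricter q (0.99), while Nes passed 1.5 times lower with a stricter q (0.50) and within 10 kb (0.64). Shared TLX peaks at Msi2 were 2 in place of 3 with a reciprocal overlap of 50% or summits within 200 bp, and 2 BTSC peaks passed the stricter q. No paired analysis was possible because each group has 1 library. Depth is unknown, which limits every statement about a peak that is missing from a list.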
